A study of Homo sapiens with 6 samples.

Results

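The Polycomb repressive complex genes described here are the 9 genes EZH1, EZH2, SUZ12, EED, BMI1, RING1, RNF2, PHC1 and CBX2. They were taken by name: every probe whose gene name in the array files is one of these symbols was used, which gave 15 probes of 9 genes among 36469 kept probes, on an array that carries 30484 gene names. All 15 probes passed the filter on spots that were not found, and 14 of them were well above background on all 6 arrays. A single probe represented EZH1, EZH2, EED, RING1 and CBX2, while RNF2 and PHC1 had 2 probes each and SUZ12 and BMI1 had 3.
RNA came from RH36 cells, an established line of embryonal rhabdomyosarcoma (ERMS), a childhood tumor with features of skeletal muscle, and the line lacks the PAX3/FOXO1 fusion. The cells received pre-miR-27a, a precursor molecule that raises miR-27a (n = 3), or a negative pre-control molecule (n = 3). According to the labels 10 nM of precursor was used with the SiPORT reagent and overexpression was tested at 24 h, and the labels of the pre-miR-27a arrays add a time of 48 h. The paper's methods describe a higher precursor concentration and another transfection reagent, and which of these applied to the arrays was not settled. The labels call the 3 samples of each group biological replicates. Each sample was labelled with Cy3 and hybridized to its own array. The arrays of the control shared slide 1 and those of pre-miR-27a shared slide 2, so the effects of slide and transfection cannot be told apart.
Polycomb group proteins keep developmental genes silent through chromatin. In Polycomb repressive complex 2 (PRC2), EZH2 or its close relative EZH1 methylates histone H3 to make the mark H3K27me3, and it does so only when bound to SUZ12 and EED. In Polycomb repressive complex 1 (PRC1), the ubiquitin ligases RING1 and RNF2 modify histone H2A, BMI1 is their partner, PHC1 allows complexes to join each other, and CBX2 reads H3K27me3. In muscle precursors EZH2 is known to hold muscle genes silent before differentiation, and high EZH2 is a known feature of rhabdomyosarcoma.
The transfected molecule gives rise to hsa-miR-27a-3p, whose mature sequence is shown since its seed (bases 2 to 8, in capitals) is what pairs with target mRNAs, beside its relative hsa-miR-27b-3p, which has the same seed. Sequences are those of RefSeq on GRCh38.p14, from chr19:13836447-13836467 (minus strand) and chr9:95085505-95085525 (plus strand).
hsa-miR-27a-3p: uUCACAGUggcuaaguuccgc
hsa-miR-27b-3p: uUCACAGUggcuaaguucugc
RING1 and RNF2, the ligase pair of PRC1, had lower signals with all their probes on every pre-miR-27a array than on every pre-control array. Of all probes on the arrays, 17.8% were lower in this way, and of the pair only RING1 passed the main test described below. The promoters of RING1 and RNF2, from 250 bases before to 50 bases after the start of the gene, are shown to compare the pair. Capitals mark the letters TTCCCGC or TTGGCGC, forms of the E2F motif, searched on both strands.
RING1 promoter, chr6:33208250-33208549 on GRCh38.p14, plus strand: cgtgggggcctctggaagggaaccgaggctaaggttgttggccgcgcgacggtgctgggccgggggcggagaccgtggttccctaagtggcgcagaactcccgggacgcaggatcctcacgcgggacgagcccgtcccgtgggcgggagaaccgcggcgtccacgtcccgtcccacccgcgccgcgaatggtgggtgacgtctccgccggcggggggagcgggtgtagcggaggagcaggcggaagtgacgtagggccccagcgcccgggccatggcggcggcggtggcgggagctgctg
RNF2 promoter, chr1:185045308-185045607 on GRCh38.p14, plus strand: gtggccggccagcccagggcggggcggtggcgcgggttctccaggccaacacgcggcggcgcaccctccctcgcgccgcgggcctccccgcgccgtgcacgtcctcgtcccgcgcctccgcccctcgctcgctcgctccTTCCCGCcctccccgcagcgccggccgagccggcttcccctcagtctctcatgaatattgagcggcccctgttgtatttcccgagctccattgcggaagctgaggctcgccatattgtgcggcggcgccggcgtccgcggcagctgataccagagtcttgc
The RNF2 window holds 1 such match and the RING1 window 0, where 9.23% of 35116 windows of 300 bases hold one. Neither window holds the ETS letters CCGGAAG, which 10.3% of windows hold, or the letters TATAAA, which 11.5% hold. Both windows were rich in G and C (74.3% for RING1 and 73% for RNF2). Of the other genes, EZH2 (in 1 of its 2 windows) and SUZ12 also had an E2F match, and the 11 windows found cover 8 of the 9 genes, without CBX2.

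Values below are log2 of the processed spot intensity, quantile normalized between arrays. A change is the mean of the pre-miR-27a arrays minus that of the pre-control arrays, given with its standard error (SE). Adjusted p-values are those of limma, with Benjamini-Hochberg adjustment over the 36469 probes, and a probe was called when this value was under 0.05. A gene with several probes is represented by its brightest. Where arrays are set in pairs, those with the same replicate number are meant, and a fit with the replicate number as a block was run beside the main one. Spots well above background made up 69.9% to 73.9% of spots on the pre-control arrays and 74.1% to 78.0% on the pre-miR-27a arrays, none was saturated, and the median local background was 74.5 to 76 and 52.5 to 53 intensity units, respectively. Of 43376 spots, 1559 to 1750 were not found on the pre-control arrays and 3487 to 4153 on the pre-miR-27a arrays. The part of these differences in the results was not tested. With 3 arrays per group precision was limited: the median SE over all probes was 0.14, and the SE of the Polycomb probes ran from 0.07 to 0.18. Fewer cells that express a gene and less RNA per cell cannot be told apart in these bulk samples.
The labelled cell type was checked against 7 markers of muscle precursors. MYOD1, MYOG, DES, CHRNA1, PAX7 and CDH15 were well above background on all 6 arrays, and the probe of MYF5 was not kept. All 6 of these markers had lower signals on the pre-miR-27a arrays, where 56.3% of all gene names did. At the brightest probe limma called 0 of them, while the block called 3 lower, beside 8.1% of all gene names. The 3 were MYOD1 at -0.45 (adjusted p = 0.0363, and 0.0787 without the block), CDH15 at -0.35 (0.0457, and 0.0561 without) and MYOG, described further on. A dimmer probe of CHRNA1 was called higher, at 0.95 (adjusted p = 0.0216), against -0.15 of the brightest. The part of these marker changes in the other results was not tested. Of 6 markers of other cell types, PTPRC, PECAM1 and EPCAM were not well above background on any array, CDH5 and ALB were above it on 3 and 5 arrays, and CD3E on all 6. Of these 6 markers 5 were lower and 1 higher on the pre-miR-27a arrays, and CD3E was called lower (-0.44, adjusted p = 0.0348), and its part in the results below was not tested.

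Among the 9 Polycomb genes RING1 fell after pre-miR-27a, and no other gene passed the test. RNF2, the alternative ligase, had lower signals without passing it, and SUZ12 had higher ones. EZH2, EED and BMI1 were strongly hybridized in RH36 cells under both conditions, and their changes did not pass the test, while CBX2 was at background. By the brightest probe, 1 of 9 genes was called lower and 0 higher, where 4.33% of 27328 gene names tested were called lower and 3.07% higher. Over all probes of the group, 1 of 15 was called lower and 0 higher, against 3.88% and 3.95% of all probes (1416 lower and 1440 higher, or 1981 lower and 1275 higher with 75th percentile scaling). A single call among so few genes is no result about the group as a whole. At an unadjusted p under 0.05 there were 3 genes, SUZ12 (higher), RING1 and RNF2 (both lower), where 9.68% of gene names were higher and 14.1% lower at that level. SAM, the method named by the study, called 0 of these genes in the settings run here. At 1.9% unpaired it called 9 probes of the whole array higher and 0 lower. Paired by replicate number at 1.9%, it called 3 higher and 0 lower. These counts are far below the number of differentially expressed genes the study reported at this rate. The study's results describe a paired SAM, run on its own filtered probes, and the cause of the difference was not tested. At 5% unpaired, SAM called 1039 probes higher and 285 lower, and 0 of these genes. The signals of the 3 arrays of one group did not overlap those of the other for 4 probes that were lower, those of RING1 and RNF2 and 1 of PHC1, and for 2 probes that were higher, both of SUZ12, where 17.8% and 14.8% of all probes did not overlap in these directions. The median change of the 9 genes, which include CBX2 at background, was 0.02, beside -0.04 over all gene names.

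**Figure D1:**
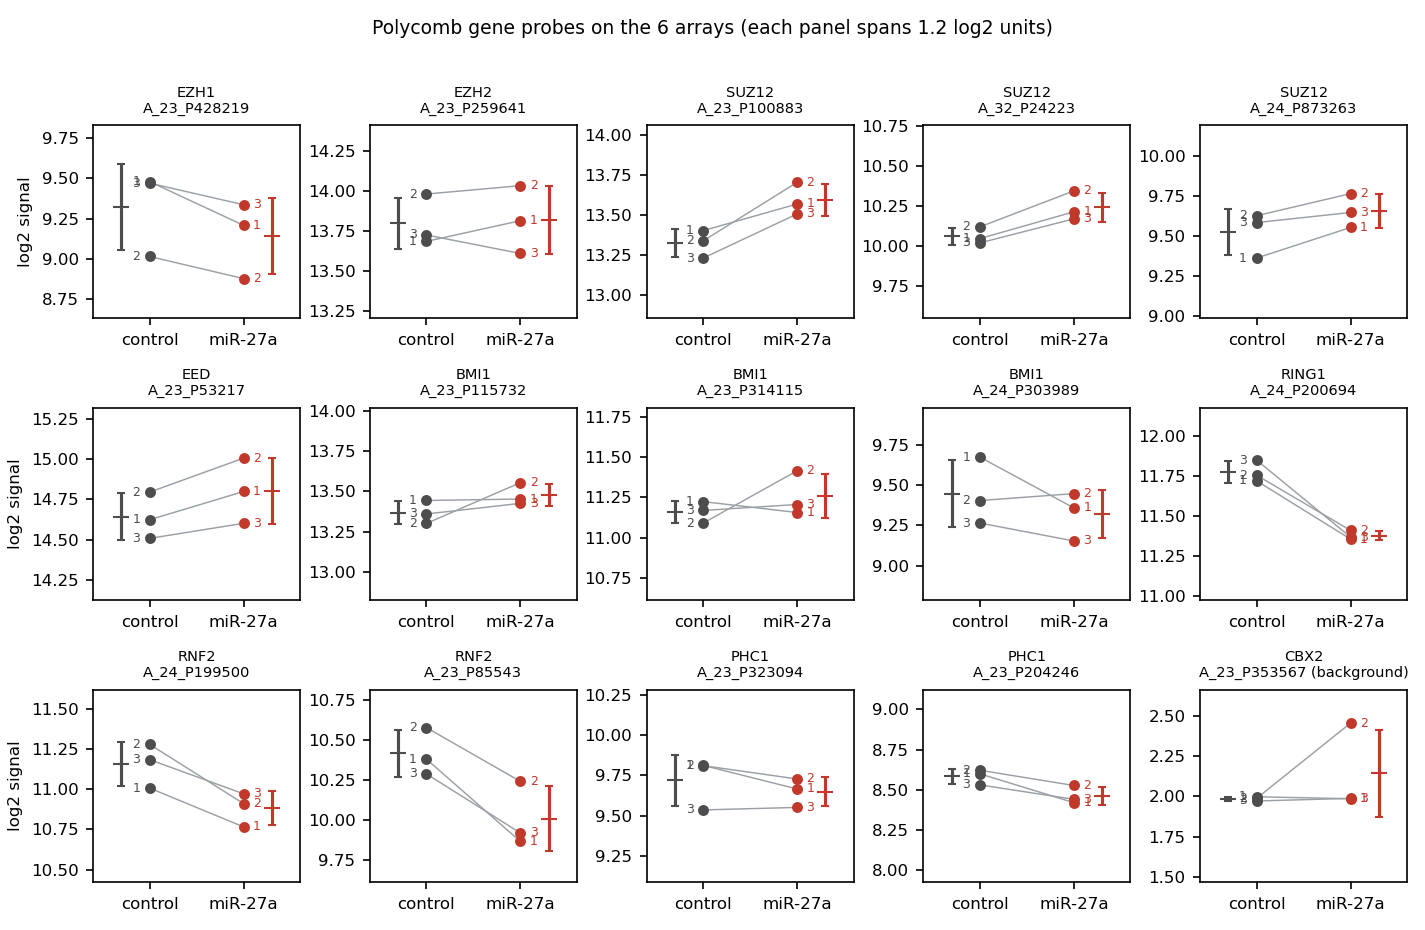
log2 signal of each Polycomb probe on the 3 pre-control arrays (grey) and the 3 pre-miR-27a arrays (red). Lines join arrays with the same replicate number, printed beside the points, and bars at the sides are the mean and SD of each group. The RING1 points lie at 11.72 to 11.85 on pre-control arrays and at 11.36 to 11.41 on pre-miR-27a arrays, while those of EZH2 overlap, and the CBX2 panel lies at background.

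The catalytic subunits of PRC2 showed no change that the test could call. EZH2, which writes most H3K27me3 in dividing cells, was measured by a probe at chr7:148135454-148135513 (hg18, minus strand). Its log2 signals were 13.69, 13.98 and 13.73 on pre-control arrays 1, 2 and 3 and 13.81, 14.03 and 13.61 on pre-miR-27a arrays 1, 2 and 3. The ranges overlapped almost entirely, and in both groups array 2 was the highest. The change was 0.02 (SE 0.14, adjusted p = 0.947), with a 95% confidence interval of -0.34 to 0.38, so a change of up to that size in either direction cannot be told from none with 3 arrays per group. Its sign depended on the scaling, since it was -0.08 when the arrays were scaled to their 75th percentile.
EZH1, the related enzyme that is known for its place in cells that no longer divide, had a probe at chr17:38106200-38106259 (hg18, minus strand). Its log2 signals were 9.48, 9.01 and 9.47 on the pre-control arrays and 9.21, 8.88 and 9.34 on the pre-miR-27a arrays. Array 2 was the lowest of each group, the groups overlapped, and the pre-miR-27a array was lower in each of the 3 pairs. The change of -0.18 (SE 0.18) did not pass the test (adjusted p = 0.607), and its interval ran from -0.64 to 0.28. The change of EZH1 minus that of EZH2 was -0.20 (SE 0.36), and a two-sided exact permutation test over arrays gave p = 0.5, where the smallest p it allows is 0.1. That test and its SE do not use the pairing of the arrays. Within pairs 1, 2 and 3 the difference was -0.40, -0.19 and -0.02.
SUZ12, the subunit on which the rest of PRC2 is assembled, had 3 probes. The brightest lies at chr17:27349869-27349928 (hg18, plus strand), with log2 signals of 13.40, 13.34 and 13.23 on the pre-control arrays and 13.57, 13.70 and 13.51 on the pre-miR-27a arrays. Every pre-miR-27a array was above every pre-control array. The change was 0.27 (SE 0.09), with an adjusted p of 0.148, and 0.0786 with the replicate block.
The second SUZ12 probe (60 bases placed within chr17:27288629-27291453) had signals of 10.05, 10.12 and 10.02 against 10.21, 10.34 and 10.17, again without overlap. Its change was 0.18 (SE 0.08, adjusted p = 0.254). The remaining one (within chr17:27326807-27327674) changed by 0.13 (SE 0.11, adjusted p = 0.52), and its groups overlapped. All 3 SUZ12 probes thus lay above 0 and none passed the test. SUZ12P, a pseudogene of SUZ12 with which probes of the gene could share signal, had its own probe with a change of 0.14 (SE 0.14, adjusted p = 0.592).
EED, which binds H3K27me3 and by that stimulates the enzyme, had a probe at chr11:85667277-85667336 (hg18, plus strand). Its log2 signals were 14.62, 14.80 and 14.51 on the pre-control arrays and 14.80, 15.01 and 14.60 on the pre-miR-27a arrays. The pre-miR-27a array was the higher in each of the 3 pairs, but the groups overlapped. The change was 0.16 (SE 0.14, adjusted p = 0.535), and the interval ran from -0.18 to 0.50.

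In PRC1 the 2 ligase genes had lower signals and the partners BMI1 and PHC1 had changes near 0. RING1, which transfers ubiquitin to histone H2A, was measured by 1 probe at chr6:33288091-33288150 (hg18, plus strand). Its log2 signals were 11.72, 11.75 and 11.85 on pre-control arrays 1, 2 and 3 and 11.36, 11.41 and 11.37 on the pre-miR-27a arrays. The groups were clearly apart, with all pre-miR-27a arrays within a narrow range. The mean was 11.77 ± 0.07 (SD, n = 3) on the pre-control arrays and 11.38 ± 0.03 (SD, n = 3) on the pre-miR-27a arrays. RING1 fell by 0.40 on the log2 scale (SE 0.07), which is a 1.32-fold lower signal, with an adjusted p of 0.0383 from limma (0.0407 with the replicate block). The interval of the change was -0.58 to -0.21. With any 1 of the 6 arrays left out the change was -0.42 to -0.36 and the adjusted p was 0.0718 to 0.127. In 4 of these 6 smaller fits 0 of all probes were called, so a lost call in those 4 says nothing about stability. The fit without pre-control array 1 called 745 probes higher and 531 lower, but not RING1 (adjusted p = 0.0718). Without pre-control array 3, 50 were called higher and 31 lower, and again not RING1 (adjusted p = 0.0944). With scaling to the 75th percentile the adjusted p was 0.0502 at a change of -0.40. Over 9 alternative settings of the limma analysis that kept all arrays, the change ran from -0.40 to -0.39 and 8 of them called it.
RNF2, the ligase with which RING1 shares its role and which usually provides most of the activity, had 2 probes. The brightest, at chr1:183337747-183337806 (hg18, plus strand), gave log2 signals of 11.01, 11.28 and 11.18 on the pre-control arrays and 10.77, 10.91 and 10.97 on the pre-miR-27a arrays. The groups did not overlap, though the highest pre-miR-27a array came close to the lowest pre-control array. The change was -0.27 (SE 0.11), with an adjusted p of 0.19, and 0.0683 with the replicate block.
The other RNF2 probe, at chr1:183335654-183335713, gave 10.38, 10.58 and 10.29 on the pre-control arrays and 9.87, 10.24 and 9.92 on the pre-miR-27a arrays. Here too no value of one group lay within the other. Its change was -0.41 (SE 0.14), with an adjusted p of 0.145 without the block and of 0.0434 with the block, which is the one call that the block added among these probes. With the block, 2 of the 15 probes were thus called lower where 7.62% of all probes were, and by the brightest probe 1 gene was called lower and 0 higher where 8.1% and 5.97% of gene names were. The mean of both RNF2 probes changed by -0.34 (adjusted p = 0.145). The change of RING1 minus that of RNF2 was -0.12 (SE 0.09), and the two-sided exact permutation test gave p = 0.3, with 0.1 again the smallest possible. Within pairs it was -0.12, 0.03 and -0.27.

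**Figure D2:**
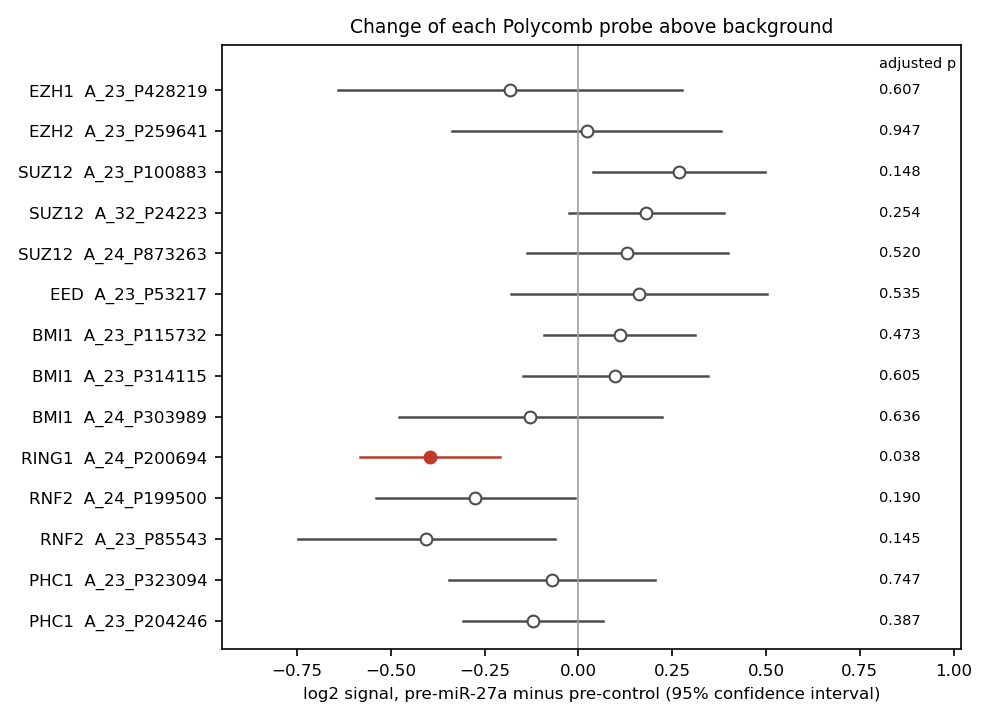
Change in log2 signal (pre-miR-27a minus pre-control) of the 14 Polycomb probes above background, with 95% confidence intervals and limma adjusted p at the right. The RING1 probe (red, filled) is the one with an adjusted p under 0.05, the 2 RNF2 probes lie to the left of 0, and the 3 SUZ12 probes lie to the right of it.

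BMI1, the partner that activates the ligases in canonical PRC1 and a known oncogene, had 3 probes. The brightest (chr10:22659818-22659884, hg18, plus strand) gave 13.44, 13.30 and 13.36 on the pre-control arrays and 13.45, 13.55 and 13.43 on the pre-miR-27a arrays, with overlap. Its change was 0.11 (SE 0.08, adjusted p = 0.473). The other 2 BMI1 probes disagreed in sign, at 0.10 (adjusted p = 0.605) and -0.13 (adjusted p = 0.636), and the mean of all 3 was 0.03.
PHC1, which lets PRC1 particles join each other, changed by -0.07 (SE 0.11, adjusted p = 0.747) at its brightest probe (chr12:8983560-8983619, hg18, plus strand). Its log2 signals there were 9.81, 9.81 and 9.53 on the pre-control arrays and 9.67, 9.73 and 9.55 on the pre-miR-27a arrays, so the groups overlapped. The second PHC1 probe gave 8.60, 8.62 and 8.53 against 8.42, 8.53 and 8.44, a change of -0.12 (SE 0.08, adjusted p = 0.387). There the groups were apart by less than the rounding shown.
CBX2, which recruits PRC1 to H3K27me3, stood well above background on 0 of the 6 arrays. Its probe (chr17:75370520-75370579, hg18, plus strand) gave a signal between 1.97 and 2.46. Its computed change of 0.16 (adjusted p = 0.572) is therefore not read as a change of the gene.

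**Figure D3:**
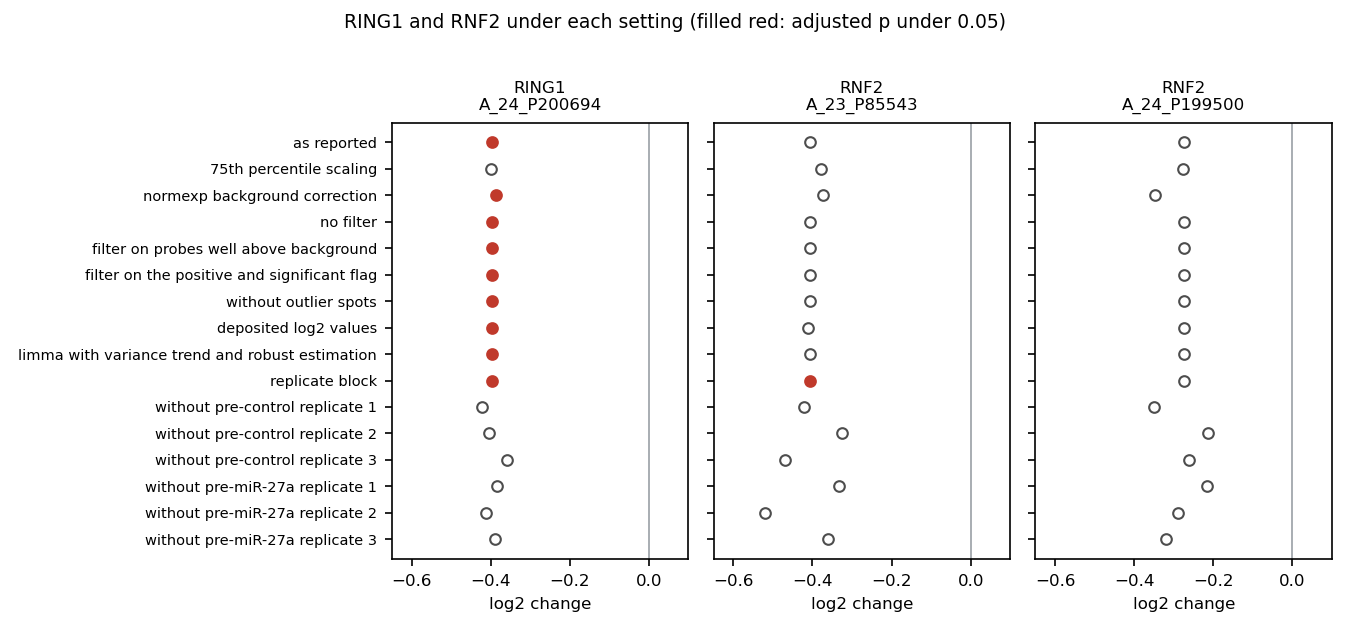
Change in log2 signal (pre-miR-27a minus pre-control) of the RING1 probe and the 2 RNF2 probes as reported and under each alternative setting, with filled red points where the limma adjusted p was under 0.05. RING1 stays between -0.42 and -0.36 throughout. It has no call with 75th percentile scaling (limma adjusted p = 0.0502) or in the 6 fits that leave out 1 array (4 of which call 0 of all probes). RNF2 is called at 1 probe with the replicate block.

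The rest of the pathway was measured with a list of other Polycomb genes. Of 36 further subunits and H3K27 demethylases, 35 were measured, and MTF2, ASXL2 and YY1 rose. By the brightest probe 24 of the 35 had a signal above and 11 below that of the control, where 56.3% of all gene names were below. The median change of the 35 was 0.13, beside -0.04 over all gene names. With limma 3 were called higher and 0 lower, beside the 3.07% and 4.33% of all gene names, and 5 higher and 2 lower had an unadjusted p under 0.05, beside 9.68% and 14.1%. With the replicate block 3 were called higher and 1 lower, beside 5.97% and 8.1%, and the added gene was MGA, named here because of that call, at -0.35 (adjusted p = 0.0546, and 0.0461 with the block). PCGF2, a relative of BMI1, had 1 probe, which was not kept, and L3MBTL1 stood well above background on 0 arrays.
MTF2, which guides PRC2 to unmethylated CpG islands, had log2 signals of 10.75, 10.68 and 10.68 on the pre-control arrays and 11.30, 11.39 and 11.31 on the pre-miR-27a arrays. The 2 groups lay well apart. It rose by 0.63 (SE 0.07, adjusted p = 0.0181).
ASXL2, which activates the deubiquitinase BAP1 that removes the mark made by PRC1, gave 11.89, 11.82 and 11.84 on the pre-control arrays and 12.59, 12.59 and 12.53 on the pre-miR-27a arrays. It rose by 0.72 (SE 0.07, adjusted p = 0.0176). A second ASXL2 probe changed by 0.36 (adjusted p = 0.0625, and 0.0394 with the block). BAP1 itself changed by 0.17 (SE 0.11, adjusted p = 0.417).
YY1, a DNA-binding protein related to the fly factor that recruits Polycomb complexes, gave 11.92, 11.85 and 11.85 on the pre-control arrays and 12.53, 12.55 and 12.44 on the pre-miR-27a arrays. It rose by 0.63 (SE 0.07, adjusted p = 0.0184). Among BAP1, ASXL1, ASXL2, ASXL3 and YY1, all 5 had higher signals, where 56.3% of all gene names had lower ones. Of these 5 genes 2 were called, where 3.07% of all gene names were called higher. In the other classes of this list, 1 of 7 PRC2 genes, 0 of 21 PRC1 genes and 0 of 2 demethylases were called higher. So few genes give no result about a class.
MTF2, ASXL2 and YY1 kept their calls when pre-control array 1 was left out (adjusted p = 0.0424 for each) and not when any of the other 5 was, at adjusted p-values of up to 0.077. The changes stayed at 0.60 to 0.65, 0.70 to 0.74 and 0.61 to 0.67, and 4 of these 5 fits called 0 of all probes.
The remaining genes fixed by name had changes that the test did not call at their brightest probes. RBBP4 and RBBP7, histone-binding subunits of PRC2, changed by -0.22 (adjusted p = 0.402) and 0.18 (adjusted p = 0.419), and JARID2, a PRC2 cofactor, by 0.05 (adjusted p = 0.834). KDM6A and KDM6B, the demethylases that remove H3K27me3, changed by -0.02 (adjusted p = 0.913) and -0.13 (adjusted p = 0.666). The PRC1 readers CBX7 and CBX8 changed by 0.03 (adjusted p = 0.943) and -0.24 (adjusted p = 0.294).
Probes of 1 gene did not always agree. RYBP, a subunit of the PRC1 forms that lack a CBX protein, changed by 0.05 (adjusted p = 0.854) at its brightest probe, while another of its 3 probes rose by 0.82 (SE 0.11, adjusted p = 0.0212). A dimmer probe of MGA, a DNA-binding partner of such PRC1 forms, rose by 0.72 (SE 0.09, adjusted p = 0.0190) against the -0.35 of its brightest. Over the 65 kept probes of these genes, 5 were called higher, among them these 2, and 0 lower, beside 3.95% and 3.88% of all probes. With the replicate block 9 were called higher and 3 lower, beside 7.24% and 7.62%. The calls that the block added at dimmer probes were RBBP4 at -0.45 (adjusted p = 0.0479) and PCGF5 at -0.46 (0.0340), and on the other side CBX7 at 0.34 (0.0410), ASXL2 as given, and both probes of L3MBTL2 that lie on the strand opposite to its other probes, at 0.40 (0.0371) and 0.43 (0.0474). The probes of this paragraph were named after their values were seen.

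**Figure D4:**
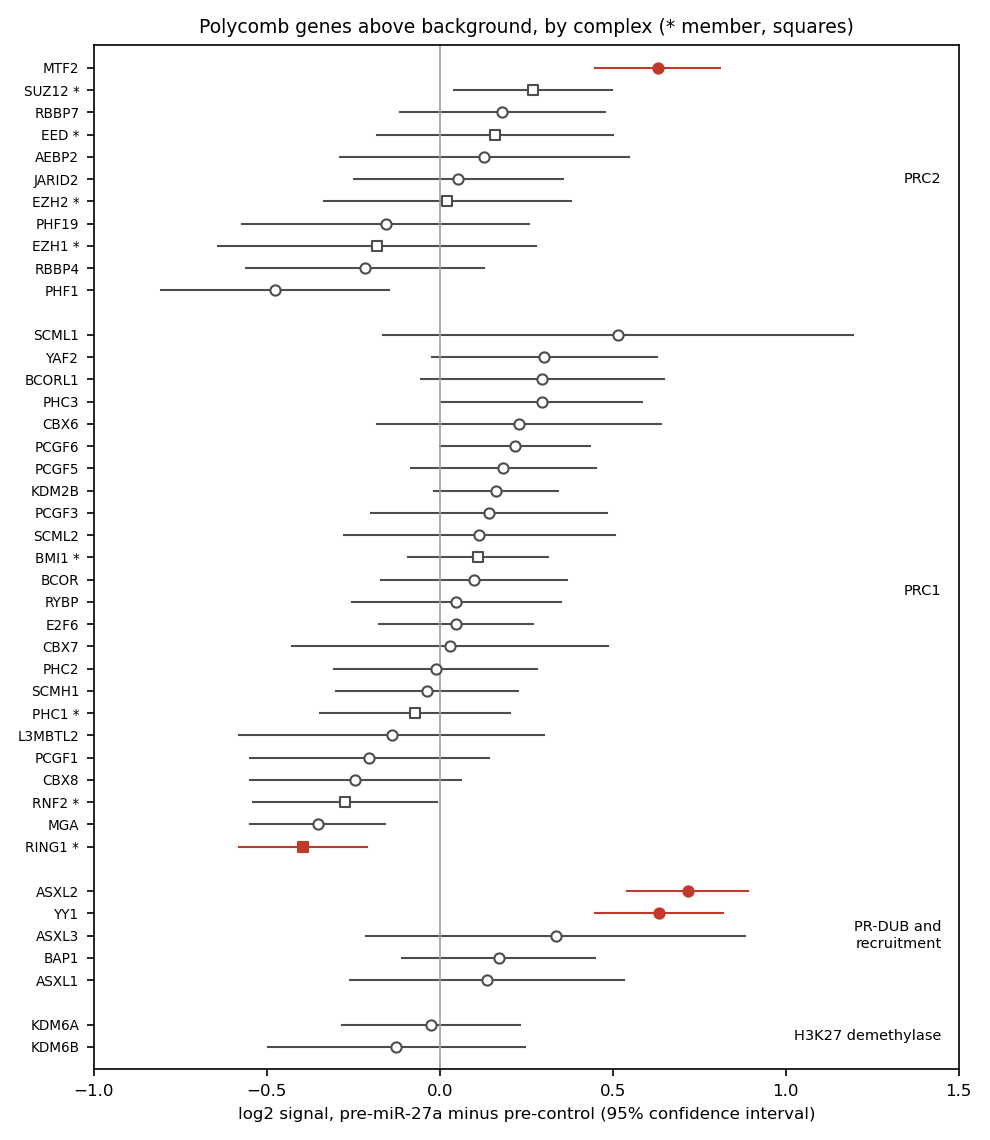
Change in log2 signal (pre-miR-27a minus pre-control) with 95% confidence interval for each Polycomb gene above background at its brightest probe, grouped by complex. Squares with an asterisk are the Polycomb genes described first (CBX2 left out as background), circles are other Polycomb genes, and red filled symbols have a limma adjusted p under 0.05, namely RING1 below 0 and MTF2, ASXL2 and YY1 above 0.

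Genes known as targets of PRC2 silencing and proliferation genes were set beside these values. Of 20 PRC2 target genes, 14 were well above background on all 6 arrays and 3 (CDH1, RUNX3 and WT1) on 0. Of all 20, 9 were above and 11 below the control, where 56.3% of all gene names were below. The median change of the 20 was -0.10, beside -0.04 over all gene names. None of them was called by limma in either direction (0 higher and 0 lower, beside 3.07% and 4.33%), while 1 higher and 3 lower had an unadjusted p under 0.05, beside 9.68% and 14.1% of gene names, and with the block 1 was called higher and 3 lower, beside 5.97% and 8.1%. CDKN2A, the cell cycle inhibitor whose locus is a classical target of BMI1, changed by -0.36 at its brightest probe (SE 0.10, adjusted p = 0.0913, and 0.0402 with the block). Its other probe changed by -0.12 (SE 0.09, adjusted p = 0.472, and 0.222 with the block), and there the groups overlapped. The neighbor CDKN2B changed by -0.54 (SE 0.59, adjusted p = 0.639), fitted without pre-control array 2, where its spot was missing. With the block the change of CDKN2B was -0.15 (adjusted p = 0.296).
MYOG, the factor that starts muscle differentiation, had log2 signals of 9.72, 10.40 and 10.69 on the pre-control arrays and 8.87, 9.42 and 9.67 on the pre-miR-27a arrays. The arrays of each group were widely spread, but the highest pre-miR-27a array lay just below the lowest pre-control array, and in each of the 3 pairs the pre-miR-27a array was the lower. The change was -0.95 (SE 0.32, adjusted p = 0.140), and MYOG was called lower with the block (adjusted p = 0.0334). CKM, the muscle creatine kinase, changed by -0.32 (SE 0.82, adjusted p = 0.854). The other calls with the block were SLIT2 at -0.36 (adjusted p = 0.0466) and NEUROG2, whose probe was well above background on the 3 pre-miR-27a arrays and on 0 pre-control arrays, as higher (adjusted p = 0.0371, fitted without pre-miR-27a array 1, where its spot was missing).
Of 12 proliferation genes, which include targets of E2F like EZH2 itself, 10 were above and 2 below the control, where 56.3% of all gene names were below. E2F2 was above by its brightest probe (0.32, adjusted p = 0.301), while its dimmer probe was lower without overlap (-0.39, adjusted p = 0.0938). The median change of the 12 was 0.15, beside the 0.02 of EZH2. None was called by limma (0 higher and 0 lower, beside 3.07% and 4.33% of gene names). At an unadjusted p under 0.05 there were 3 higher, beside 9.68%. With the block 2 were called higher at their brightest probes, beside 5.97%, TOP2A at 0.65 (adjusted p = 0.0334) and PCNA at 0.40 (adjusted p = 0.0366), and the block also called a dimmer probe of RRM2 at 0.44 (adjusted p = 0.0353). MKI67, a protein of dividing cells, gave 10.14, 10.49 and 9.92 on the pre-control arrays and 11.04, 11.02 and 10.37 on the pre-miR-27a arrays, with overlap and a change of 0.63 (SE 0.24, adjusted p = 0.185). E2F1 changed by 0.04 (SE 0.17, adjusted p = 0.923).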

How the data were processed

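RNA of RH36 cells with pre-miR-27a (n = 3) or pre-control (n = 3) was hybridized to 1-colour Agilent arrays. The authors deposited spot intensities from Feature Extraction 10.5.1.1, background-subtracted within the array and not normalized between arrays, and a table of quantile-normalized log2 values of 33169 probes, whose median absolute difference from the values computed here was 0.0040. All columns of samples were used (0 left over). The depth of an array is its signal over background, so dim probes have only bounds.
Without the control spots, log2 processed intensities were quantile normalized. A spot that the software had not found counted as missing, replicate spots were averaged, and a probe could be missing on at most 1 array. Files were read with data.table (version 1.17.8) in R 4.3.3, and the groups were compared with limma 3.58.1 at a Benjamini-Hochberg adjusted p of 0.05, and the fit was tested on simulated data. The correlation of deviations from the group mean over 31717 probes was 0.40, 0.46 and 0.41 for same-numbered arrays and -0.27 to -0.12 for the others. The negative values follow from the positive ones, since deviations from the mean of 3 arrays sum to 0. The replicate numbers of the labels, equal to the slide positions, were taken to pair the arrays. Whether same-numbered arrays were alike through culture or through slide position cannot be told apart. Blocked values are given where they changed a call of a gene described, and for some probes whose call did not change. Alternatives were 75th percentile scaling, normexp (offset 50), no filter, filters on other flags, leaving out outlier spots, the deposited values, a variance trend with robust estimation, the block, the mean of a gene's probes, SAM (two-class, unpaired and paired, at 1.9% and 5%), and each array left out.
The Polycomb genes, the lists of other Polycomb genes, PRC2 targets, proliferation genes and markers, and the rule for naming were chosen with earlier results of these data known. Of the lists, 2 genes are not reported here and are not in the counts. The rule names all 9 genes, 9 fixed genes of the Polycomb list, 6 of the targets and proliferation genes, and genes called by the brightest probe. Gene names and hg18 positions are those of the array files, and whether a probe lies in a coding exon or UTR was not analysed here. Sequences come from RefSeq tables of GRCh38.p14, in which all 9 symbols are current.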

Additional observations from a re-analysis of the deposited data

How the results depend on the processing

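RING1 was lower under every alternative limma setting run, and it was not called with 75th percentile scaling (-0.40, adjusted p = 0.0502) or with any 1 array left out (-0.42 to -0.36), where 4 of 6 fits called 0 of all probes. The count of Polycomb genes called lower was then 0, as it was in all 4 SAM settings, and the count of their probes called lower was 0 in the same settings and 2 with the replicate block, which added the RNF2 probe at -0.41 (adjusted p = 0.0434). EZH2, never called, turned to -0.078 with 75th percentile scaling and -0.055 with normexp, and ran from -0.085 to 0.126 with 1 array left out; CBX2, at background, turned to -0.61 with 75th percentile scaling. That scaling moved the median of all probes by -0.073. The EZH1 change minus the EZH2 change ran from -0.449 to 0.035 with 1 array left out. Other Polycomb genes called lower were 1 with normexp, the filter on well above background, the variance trend and the replicate block, and those called higher were 0 to 3 with 1 array left out. PRC2 targets called higher were 1 with no filter, with both other flags, with the deposited values and with the block, and those called lower were 1 with 75th percentile scaling or normexp and 3 with the block, which also called 2 proliferation genes higher. Over all probes, 2641 were called higher and 2780 lower with the block, 0 to 745 higher and 0 to 531 lower with 1 array left out, 9 higher and 0 lower by unpaired SAM at 1.9%, 1039 higher and 285 lower at 5%, 3 higher and 0 lower by paired SAM at 1.9%, and 1648 higher and 0 lower at 5%. The causes of these differences were not tested.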
